A study of Mus musculus with 7 samples.

Results

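The NR4A family holds 3 orphan nuclear receptors, Nr4a1 (Nur77), Nr4a2 (Nurr1) and Nr4a3 (Nor1), and its transcripts were followed in C2C12 muscle cells that had been given exosomes from other C2C12 cells. Every non-control probe that the array annotation names for one of these 3 genes was taken, which gave 4 of the 39429 probes on the array for 3 of its 31829 gene names. The family had been chosen by the differences of Nr4a1 and Nr4a2 between the groups of this same series, so these differences are described here and receive no test. C2C12 is a line of mouse myoblasts, muscle precursor cells that can be made to fuse into multinucleate myotubes. The exosomes came from C2C12 myotubes exposed to 0.5 mM palmitate (EXO-Palm, 3 arrays) or to BSA, the protein that carries palmitate (EXO-BSA, 4 arrays), and according to the methods they were collected after palmitate had been withdrawn. Recipient cells of both groups received exosomes for 24 h, so no group without exosomes was analysed here. The labels call the arrays biological replicates and the recipient cells myoblasts, while the paper describes myotubes. The cell line label names C2C12 on EXO-BSA replicate 1 and counts upward from that name on the other arrays, and all were taken as C2C12, the line given in their source labels.

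NR4A receptors are transcription factors of the immediate early kind. No hormone is known to control them in the way that steroids control their receptors, and their activity follows mainly from how much of each protein is made. Their genes are switched on quickly by cyclic AMP acting through CREB and by calcium acting through MEF2. In skeletal muscle they are known for their response to exercise and adrenergic stimulation and for acting on genes of glucose and fat use.

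The stretch before the annotated start of each gene is shown first, because the cyclic AMP input reaches these genes through sites of this kind. Each window ran from 250 bases before the RefSeq start to 50 bases after it in GRCm38.p6, a build other than the one used for the probe positions below. The bases before the start are printed 5′ to 3′ on the strand of the gene, with each TGACG, or its reverse complement CGTCA, in capitals. This is the half-site of the cyclic AMP response element (CRE), whose full form TGACGTCA holds the half-site on both strands. The printed stretches are chr15:101266596-101266845 on the plus strand for Nr4a1, chr2:57124004-57124253 on the minus strand for Nr4a2 and chr4:48045055-48045304 on the plus strand for Nr4a3.
Nr4a1: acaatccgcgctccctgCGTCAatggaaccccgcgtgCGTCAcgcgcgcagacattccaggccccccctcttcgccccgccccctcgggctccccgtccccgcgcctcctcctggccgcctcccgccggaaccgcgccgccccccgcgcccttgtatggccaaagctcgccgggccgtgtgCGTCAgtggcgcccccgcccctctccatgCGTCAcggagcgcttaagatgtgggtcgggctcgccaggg
Nr4a2: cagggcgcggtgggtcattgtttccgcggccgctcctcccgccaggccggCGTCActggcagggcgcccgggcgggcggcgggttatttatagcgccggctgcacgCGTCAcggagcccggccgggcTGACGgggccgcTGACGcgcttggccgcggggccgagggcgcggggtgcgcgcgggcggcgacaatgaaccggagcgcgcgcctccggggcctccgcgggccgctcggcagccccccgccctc
Nr4a3: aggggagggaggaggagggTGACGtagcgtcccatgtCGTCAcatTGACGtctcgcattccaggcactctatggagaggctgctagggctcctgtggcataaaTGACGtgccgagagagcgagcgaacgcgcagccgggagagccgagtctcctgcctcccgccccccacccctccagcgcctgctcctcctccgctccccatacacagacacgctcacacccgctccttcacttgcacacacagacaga

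Each of the 3 windows held 4 half-sites, all of them before the start. Those of Nr4a1 began at -233, -213, -69 and -40, all on the opposite strand. In Nr4a2 they began at -200, -144, -123 and -111, and in Nr4a3 at -231, -213, -205 and -147. At least 4 half-sites were found in 76 of 32851 RefSeq promoter windows of this length, or 0.231%, and at least 1 in 20.8%. The NR4A windows were rich in G and C, at 72.3% in Nr4a1, 81.7% in Nr4a2 and 64.7% in Nr4a3 against a median of 52.7% over all windows, and the part of base composition in the count of half-sites was not tested. None of the 3 windows held the full TGACGTCA, which 1.79% of all windows did. These letters describe the windows and do not show that a factor was bound there.

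**Figure D1:**
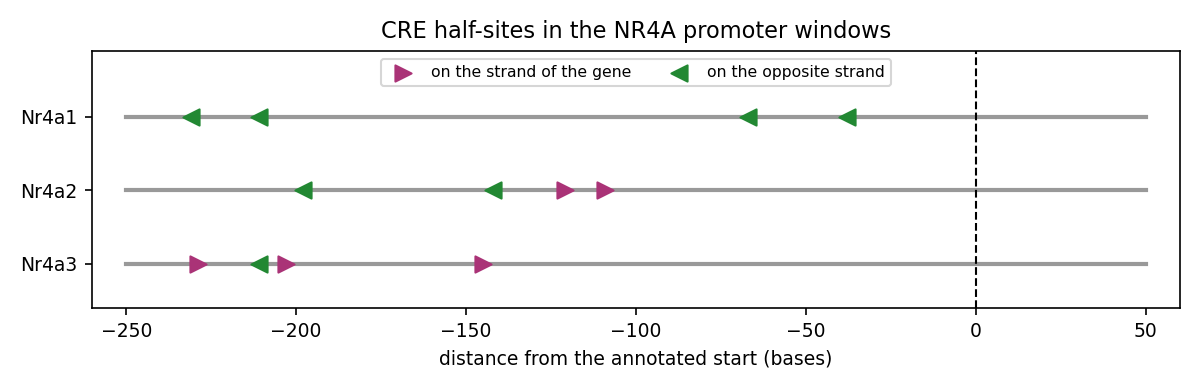
Positions of the CRE half-site in the promoter windows of the 3 receptors, in bases from the annotated start (dashed line), with arrowheads for the strand of each match. Every window held 4 half-sites, which in Nr4a2 and Nr4a3 lay between -231 and -107 and in Nr4a1 reached to -36.

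A value below is the log2 processed intensity of a probe minus that of the 75th percentile of the same array, so that 0 is that percentile. Values of different probes are not comparable as levels, because probes differ in how brightly they bind. The 75th percentile lay between 549.4 and 1621 over the 7 arrays, and 48.3 to 70.3% of the probes were well above background by the test of the scanner software. Precision is limited by the number of arrays. By the scan identifier in their headers, the arrays fell into 4 sets, which are taken as slides here. Slide 1 held EXO-BSA replicates 1 and 2 with EXO-Palm replicate 1, and slide 3 held EXO-BSA replicate 4 with EXO-Palm replicate 3. EXO-BSA replicate 3 was alone on slide 2 and EXO-Palm replicate 2 alone on slide 4. A fit with slide as a fixed block therefore takes nothing from these arrays. Of 8 myotube markers, 8 were well above background on every array. Pooled RNA was measured, in which fewer cells of a type and less RNA per cell cannot be told apart. Over all tested probes, limma called 115 of 21583 between the groups at an adjusted p of 0.05, or 0.533%, of which 100 (0.463%) were higher with EXO-Palm and 15 (0.0695%) lower.

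Nr4a1, the founding receptor of the family, was measured by 1 probe at chr15:101105071-101105130 on the plus strand in mm9, the build of the array annotation. It was well above background on all 7 arrays. The log2 values were 1.81, 1.51, 1.98 and 1.68 on EXO-BSA replicates 1 to 4 and 2.51, 2.38 and 2.64 on EXO-Palm replicates 1 to 3. All 3 EXO-Palm arrays were above all 4 EXO-BSA arrays, a separation shown by 5.44% of the 21133 tested probes with a value on every array. Before scaling between arrays the groups overlapped, with processed intensities of 2331 to 4061 with EXO-BSA and 3381 to 9268 with EXO-Palm. The means of the log2 values were 1.75 ± 0.20 (SD, n = 4) with EXO-BSA and 2.51 ± 0.13 (SD, n = 3) with EXO-Palm. EXO-Palm exceeded EXO-BSA by 0.77 on the log2 scale (standard error 0.20), or 1.70-fold, and 3.94% of the tested probes had a larger fitted rise. Within slide 1 the difference was 0.86, and within slide 3 it was 0.96. The spread of this probe within the groups was small, since 21.5% of the tested probes varied less among the EXO-BSA arrays and 11.4% less among the EXO-Palm arrays.

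Nr4a2, known above all for its part in dopamine neurons, showed the widest gap of the family. It was measured by 2 probes, both well above background on all 7 arrays. The first lay at chr2:56960699-56960758 on the minus strand (mm9) and is called the coding probe here. It has 1 reading frame without a stop codon, as the second probe also has, so this does not set the probes apart. It is shown in full as the brighter of the 2 probes.
Nr4a2 coding probe: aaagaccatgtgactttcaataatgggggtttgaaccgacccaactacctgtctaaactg
Its log2 values were -1.70, -1.79, -1.74 and -2.17 on EXO-BSA replicates 1 to 4 and 0.88, 1.04 and 1.74 on EXO-Palm replicates 1 to 3. As processed intensities these ran from 160.7 to 357.1 with EXO-BSA and from 1338 to 2990 with EXO-Palm, so the groups stood apart before any scaling between arrays. The means were -1.85 ± 0.22 (SD, n = 4) and 1.22 ± 0.46 (SD, n = 3). EXO-Palm exceeded EXO-BSA by 3.07 on the log2 scale (standard error 0.26), or 8.42-fold. The difference was 2.62 within slide 1 and 3.92 within slide 3.

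The second Nr4a2 probe lay further 3′ at chr2:56959637-56959696 (mm9). It read -2.89, -2.58, -2.50 and -2.74 on the EXO-BSA arrays and 0.70, -0.47 and 0.90 on the EXO-Palm arrays, again without overlap. The means were -2.68 ± 0.17 (SD, n = 4) and 0.38 ± 0.74 (SD, n = 3), a difference of 3.06 (standard error 0.33) or 8.33-fold. EXO-Palm replicate 2 was the lowest EXO-Palm array here and the middle one on the coding probe. The gap between the probes was therefore 1.51 on that array and 0.18 on EXO-Palm replicate 1, against 0.57 to 1.19 on the EXO-BSA arrays. In the mean over arrays it was 0.83 ± 0.26 (SD, n = 4) with EXO-BSA and 0.84 ± 0.66 (SD, n = 3) with EXO-Palm, so the probes gave nearly the same difference between the groups. Both had a small spread among the EXO-BSA arrays and a wide one among the EXO-Palm arrays, where 69.3% of the tested probes varied less than the coding probe and 87.9% less than the 3′ probe.

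Nr4a3, the third receptor, was not measurable on these arrays. Its probe is printed 10 times, and its coordinates in mm9 (chr4:48080690-48083876, plus strand) span more than its 60 bases, as those of a probe across a splice junction do. Its sequence is given because this receptor has no other probe on the array.
Nr4a3 probe: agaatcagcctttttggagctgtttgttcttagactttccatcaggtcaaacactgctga
On no array was any of the 10 spots well above background. The processed intensity, averaged over the 10 spots, was 6.86 to 11.1 after background subtraction, where the local background itself was 27.1 to 30.8. The log2 values were -7.39, -7.14, -6.32 and -6.06 with EXO-BSA and -7.56, -6.36 and -6.39 with EXO-Palm. The groups overlapped, all 7 values were below the lowest signal well above background on their own array (-6.04 to -4.38), and no fold is given. Any change of Nr4a3 was therefore not detectable with this probe.

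**Figure D2:**
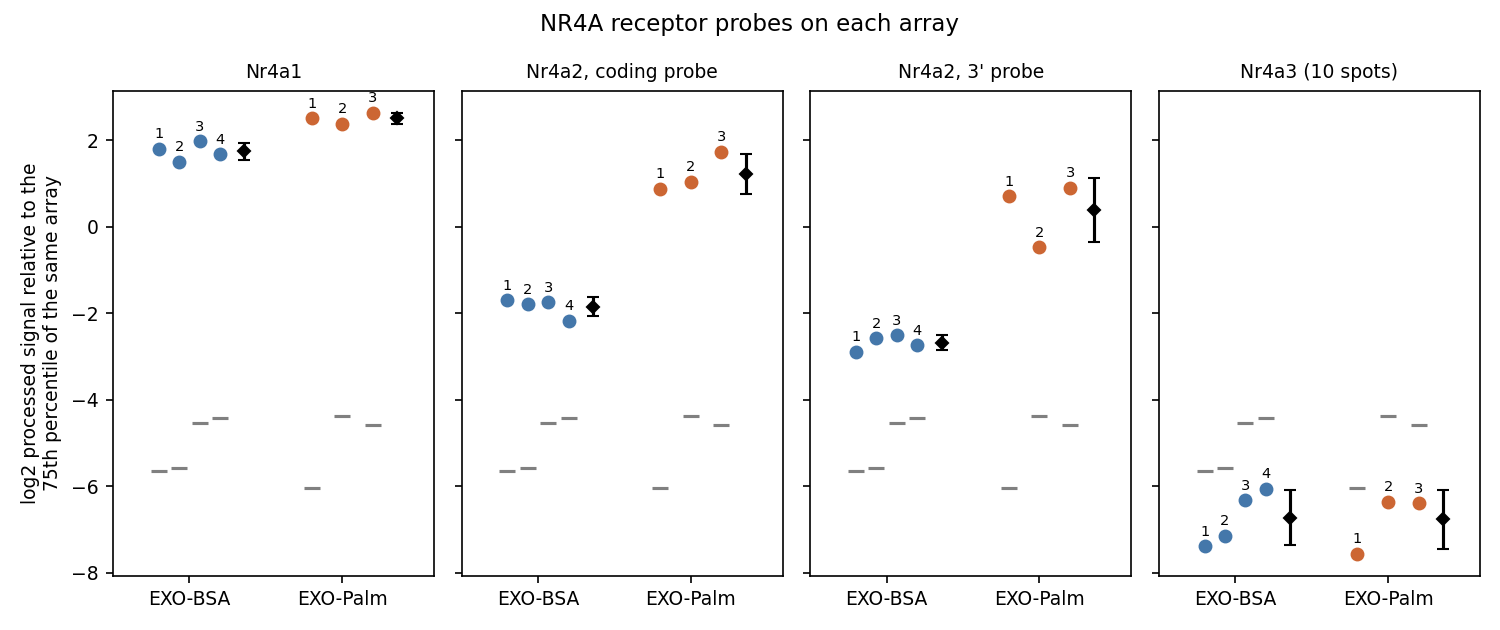
The 4 NR4A probes on each array, as log2 processed intensity relative to the 75th percentile of the array; points are arrays with their replicate number, diamonds with bars are the group mean ± SD, and grey dashes mark the lowest signal well above background on the same array. The EXO-Palm arrays lie above all EXO-BSA arrays for Nr4a1 and both Nr4a2 probes, and all Nr4a3 points lie below the dashes.

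Side by side, the receptors differed in the size of their difference. Relative to its own EXO-BSA mean, the Nr4a2 coding probe exceeded Nr4a1 by 1.96, 2.26 and 2.69 on the log2 scale on EXO-Palm replicates 1 to 3, so the order held on every EXO-Palm array. Of the 4 NR4A probes, 3 passed the filter on low signal. Across the other processing settings, the difference was 0.69 to 1.04 for Nr4a1, 2.50 to 3.24 for the Nr4a2 coding probe and 2.68 to 3.53 for the 3′ probe. It kept its sign in every setting tried, though a change of the probe filter or a trended and robust fit cannot move it.

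**Figure D3:**
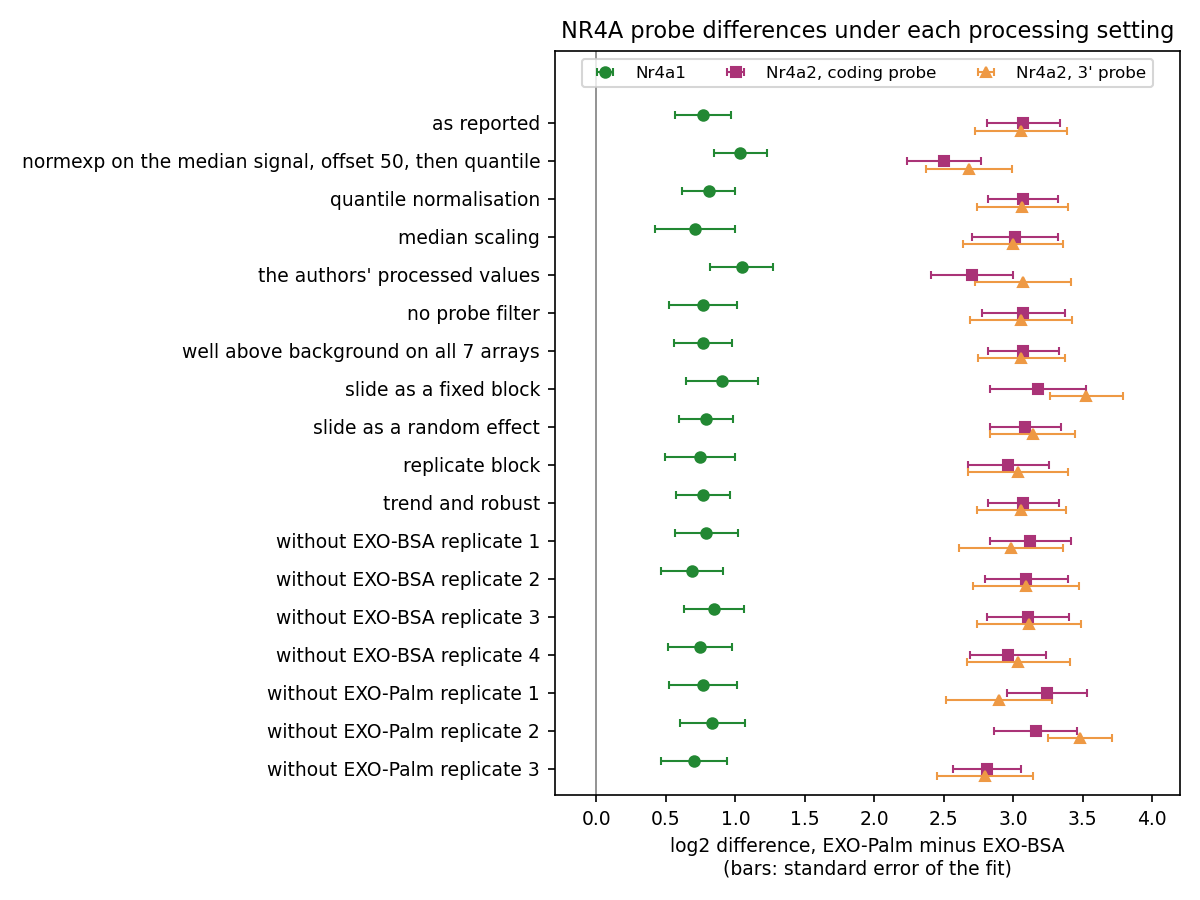
Log2 difference between EXO-Palm and EXO-BSA for the 3 measurable NR4A probes under the reported setting and 17 other settings, with the standard error of each fit as a bar. All points lie to the right of 0, Nr4a1 between 0.69 and 1.04 and both Nr4a2 probes between 2.50 and 3.53. The filter settings and the trended and robust fit can change only the standard error.

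Among the genes of the cyclic AMP and CREB input, 1 of 25 tested rose and none fell by limma. Their median difference was 0.013, against -0.031 over all 17434 tested genes, of which 0.562% were called and 10.2% had an unadjusted p under 0.05. The gene that rose was Pde4b, a phosphodiesterase that breaks down cyclic AMP. It has 2 tested probes, at 1.03 and 1.28, and limma called only the brighter one, which is given here. Its log2 values were -2.43, -2.17, -2.34 and -1.88 with EXO-BSA and -0.84, -1.08 and -0.84 with EXO-Palm, a difference of 1.28 (standard error 0.21, limma adjusted p = 0.0454). The groups did not overlap, yet the call was lost in 14 of 17 other settings and without any 1 of the 7 arrays, where the adjusted p reached 0.185. The next largest rise was that of Crem, which encodes activators and a repressor that bind the CRE, at 0.89 (standard error 0.39, limma adjusted p = 0.504). Crem did not pass, and its groups overlapped. Its difference was 1.31 without EXO-Palm replicate 2 and 1.54 with slide as a fixed block, which also takes nothing from that array. Adcy7, an adenylyl cyclase that makes cyclic AMP, was below all EXO-BSA arrays on all 3 EXO-Palm arrays but did not pass (-0.71, limma adjusted p = 0.346). Sik1, a kinase that restrains the CREB coactivators, had a fitted difference of -2.28 that rested on EXO-Palm replicate 2. It read -6.59 there, not well above background, against 0.99 and 1.31 on the other EXO-Palm arrays and 0.48 to 1.54 with EXO-BSA, and without that array the difference was 0.30. Unadjusted p was under 0.05 for 4 higher and 2 lower genes of this list.

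Of the calcium, MEF2 and class IIa HDAC genes, 20 were tested, and limma called none. Their median difference was 0.0015, and 1 gene had an unadjusted p under 0.05. That gene was Nfatc1, a calcium-responsive transcription factor, at -0.98 (limma adjusted p = 0.335) with the EXO-Palm arrays below all EXO-BSA arrays. Hdac7, a class IIa deacetylase that holds MEF2 inactive, was at 0.54 (limma adjusted p = 0.532) with overlapping groups. Rcan1, an inhibitor of calcineurin, was at 0.30 (limma adjusted p = 0.79) and its sign turned without EXO-Palm replicate 2, to -0.05. Camk2g, a calcium-dependent kinase, was at -0.64 (limma adjusted p = 0.511) in a fit that left out a spot of EXO-BSA replicate 3. Camk2g was at -0.37 with normexp, a background correction on the median signal, and Hdac7 at 0.35 without EXO-Palm replicate 2.

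RXR partners and coregulators of NR4A numbered 17 tested genes, with a median difference of -0.0036 and no call by limma. Rxra, the partner with which Nr4a1 and Nr4a2 can pair, was at 0.58 (standard error 0.28, limma adjusted p = 0.539), its groups overlapped, and it was at 0.37 without EXO-Palm replicate 2 and 0.36 with normexp. Akt2, a kinase of the insulin pathway, was at 0.25 (limma adjusted p = 0.778), and at 0.074 without EXO-BSA replicate 1 and 0.16 without EXO-Palm replicate 3. Its highest value in another setting was 0.38, without EXO-BSA replicate 3. The 3 tested probes of Akt2 ranged from 0.11 to 0.66, and none was called. Ppargc1a, a coactivator of oxidative metabolism, had the only unadjusted p under 0.05 of the list. It read -3.32, -3.69, -3.42 and -3.54 with EXO-BSA and -4.08, -4.09 and -4.29 with EXO-Palm, a difference of -0.66 that did not pass (limma adjusted p = 0.278) and was -0.30 with normexp. Ppargc1a was well above background on only 2 of 3 EXO-Palm arrays.

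Other rapid targets of cyclic AMP gave no call by limma among 16 tested genes, and their median difference was 0.17. Unadjusted p was under 0.05 for 2 higher and 3 lower genes. Rgs2, a regulator of G protein signalling, had the widest difference. It read -3.08, -2.70, -3.40 and -3.68 with EXO-BSA and -0.62, -2.21 and -0.16 with EXO-Palm, a difference of 2.22 (standard error 0.47, limma adjusted p = 0.121). The groups did not overlap, and EXO-Palm replicate 2 was nearest to the EXO-BSA arrays. Rgs2 was called without that array (limma adjusted p = 0.0128) and in 2 other settings. Of these, slide as a fixed block also takes nothing from that array. Ptgs2, the inducible cyclooxygenase, was at 0.85 (limma adjusted p = 0.233), also without overlap. With normexp these differences were 1.46 for Rgs2 and 0.55 for Ptgs2. Fos, the classic immediate early gene, was at -0.07 (limma adjusted p = 0.941) with overlapping groups. Below zero were Cyr61, a matricellular protein gene now called Ccn1, at -1.02 (limma adjusted p = 0.12) and Btg2, an antiproliferative gene, at -0.79 (limma adjusted p = 0.331). Among the 13 genes of this list with a promoter window, 11 held at least 1 CRE half-site and 2, Areg and Dusp1, held 3 or more. Over all windows these shares were 20.8% and 1.03%. A gene was counted by its richest window, so its count and these shares are not alike. The genes were listed as targets of cyclic AMP, so the sites are no independent sign of that input.

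Muscle genes that have been reported as NR4A targets lay below zero in 16 of 17 tested genes, with a median difference of -0.39 against -0.031 over all genes. The share of all genes below zero was not counted, and the list was chosen with earlier results of these data known. Limma called none of them at the adjusted threshold. Unadjusted limma p was under 0.05 for 6 genes, all lower, where 10.2% of all tested genes had such a p in either direction. All 6 were without overlap of the groups, which goes along with a low p. This is the case for 5.79% of the tested probes in this direction. The gene nearest to the threshold was Igf1, the muscle growth factor. It read 2.71, 2.62, 2.62 and 2.51 with EXO-BSA and 1.45, 1.65 and 0.98 with EXO-Palm, a difference of -1.26 (standard error 0.22, limma adjusted p = 0.0564). Igf1 has 5 tested probes, all below zero between -1.27 and -0.43, of which limma called 1, and the brightest probe passed in 6 of 17 other settings. Slc2a4, which encodes the insulin-responsive glucose transporter GLUT4, read -1.33, -1.59, -1.49 and -1.39 with EXO-BSA and -2.38, -2.16 and -2.35 with EXO-Palm. Its difference of -0.85 (standard error 0.19) did not pass (limma adjusted p = 0.133). Lpin1, a phosphatidate phosphatase, was at -0.76, Hif1a, the hypoxia factor, at -0.65, and Pygm, the muscle glycogen phosphorylase, at -0.59, and none of these passed. Adipor2, an adiponectin receptor, was the 1 gene above zero (0.08, limma adjusted p = 0.933) in a fit that left out its spot on EXO-Palm replicate 2, and Prkag3, an AMP kinase subunit, was at -0.04. The NR4A monomer element AAAGGTCA was searched on both strands in the 19 target promoters at hand, and none held it within its window. It was found in 1.51% of all windows, and at that share none among 19 is the usual outcome. The search therefore does not set these genes apart.

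**Figure D4:**
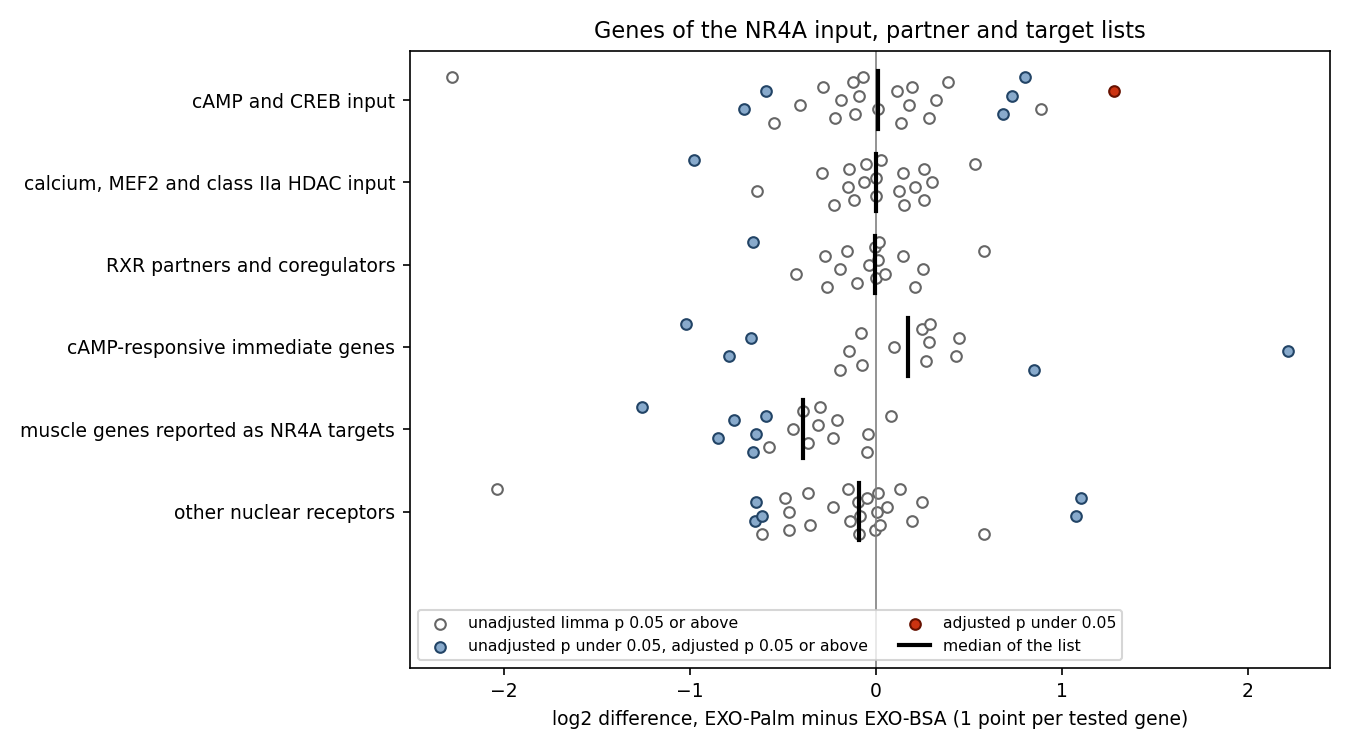
Log2 difference between EXO-Palm and EXO-BSA for every tested gene of 6 lists around the NR4A receptors, with the median of each list as a black bar and filling by limma p. Pde4b is the 1 gene past the adjusted threshold, and the muscle target list has its median at -0.39 with 1 gene above zero.

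Of the other nuclear receptors on the array, 28 of 46 could be tested, and limma called none. Their median difference was -0.09. Vdr, the vitamin D receptor, read -0.79, -0.22, -0.36 and -0.28 with EXO-BSA and 0.62, 0.30 and 1.16 with EXO-Palm, a difference of 1.10 (standard error 0.26, limma adjusted p = 0.165). Nr1h3, the oxysterol receptor LXR alpha, was at 1.08 (standard error 0.25, limma adjusted p = 0.154). For both, the EXO-Palm arrays lay above all EXO-BSA arrays. Esr1, an oestrogen receptor, was at -0.65 (limma adjusted p = 0.397). With normexp the difference was 0.64 for Vdr, 0.60 for Nr1h3 and -0.37 for Esr1, and with the authors' values it was 0.65 for Vdr. Nr1d2, a circadian repressor, had a fitted difference of -2.04 through EXO-Palm replicate 2, where it read -6.58 and was not well above background, and without that array it was 0.08. Unadjusted p was under 0.05 for 2 higher and 3 lower receptors.

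The genes most like each measurable receptor over the 7 arrays were sought among 17039 genes. For Nr4a1 they were Phex, a cell surface peptidase (Pearson's r = 0.988), Tgfbi, a matrix protein (0.984), LOC100048394 (0.983), Zdhhc2, a palmitoyltransferase (0.983), and Cx3cl1, a chemokine (0.982). For the Nr4a2 coding probe they were Stmn1, a regulator of microtubules (0.992), Hsd11b1, which regenerates glucocorticoids (0.992), Cdca3 (0.991), the condensin subunit Ncaph (0.991) and Ccnb1, the mitotic cyclin B1 (0.988). The arrays fall into 2 groups on these probes, so the coefficients mainly carry the difference between the groups. With the group means removed, the coefficients were 0.87 to 0.93 for the genes most like Nr4a1 and 0.74 to 0.91 for those most like the Nr4a2 coding probe. High values here are partly a result of picking the top genes out of 17039 on the same arrays. The 3′ probe of Nr4a2 orders the EXO-Palm arrays otherwise and was not compared in this way. They describe 7 arrays and share the scaling of each array.

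Like the Nr4a2 probes, a pair of markers of dividing cells, Ccnb1 and Mki67, was higher with EXO-Palm. Of 8 myoblast and proliferation markers, 6 were well above background on all 7 arrays and Myf5 on none. Their summed level, in multiples of the 75th percentile, was 8.32 to 10.6 on the EXO-BSA arrays and 14.5 to 22.0 on the EXO-Palm arrays. Limma called Ccnb1 (2.76, adjusted p = 0.0108) and Mki67 (2.12, adjusted p = 0.0436), and no other gene of this list. Both are part of the sum and account for most of its rise. The precursor markers Myod1 (0.03), Id1 (-0.02), Id3 (0.35) and Pax7 (-0.21) did not pass, and their groups overlapped. Ccnb1 was called without 5 of the 7 arrays in turn, but not without EXO-BSA replicate 1 (adjusted p = 0.0565) or EXO-Palm replicate 1 (adjusted p = 0.0548). Mki67 was called without EXO-Palm replicate 2, while leaving out any other single array gave an adjusted p of 0.0832 to 0.15. The summed level of the 8 myotube markers was 530.2 to 655.1 with EXO-BSA and 478.8 to 557.2 with EXO-Palm, and none was called. Macrophage markers summed to 1.17 to 1.70 and 1.40 to 2.51, fibroblast markers to 28.0 to 80.6 and 53.6 to 61.4, and endothelial markers to 4.15 to 5.28 and 3.05 to 6.20, in the order EXO-BSA and EXO-Palm. The 3 tested fibroblast markers were above zero and none was called, and of these Lum, a matrix proteoglycan, had the widest difference (1.45, limma adjusted p = 0.105), without overlap of the groups. Tcf21 of the fibroblast list and Tek and Cdh5 of the endothelial list were well above background on no array. The part of dividing or other cells in the NR4A differences was not tested.

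Probes within 50 kb of the receptors' own probes were read last, on mm9 positions, and were chosen after the positions had been seen. Around Nr4a1, limma called none of 3 probes, those of Atg101 (0.12, adjusted p = 0.884), Grasp (-0.57, adjusted p = 0.612) and the transcript ENSMUST00000071328 (-0.51, adjusted p = 0.471). None had an unadjusted p under 0.05 except the last. Near Nr4a2, 2 transcripts on the same minus strand, D030020J04Rik at 10.5 kb and BB557941 at 19.1 kb, were well above background on 0 of 4 EXO-BSA arrays and on 2 of 3 EXO-Palm arrays, which kept them out of the limma fit. D030020J04Rik read -6.83, -5.52, -5.17 and -6.38 with EXO-BSA and -3.45, -4.33 and -3.75 with EXO-Palm, without overlap. With a floor set for EXO-BSA, it was 2.28-fold higher with EXO-Palm. BB557941 was 2.31-fold higher in the same way, and its groups overlapped. The floor was the lowest signal well above background on each EXO-BSA array, or the probe's own signal where that was higher. The EXO-Palm mean took in all 3 arrays, also the one not well above background, so these folds are not strict lower bounds. The LOC100045152 probe, 26.3 kb from that of Nr4a3, was at 0.43 (limma adjusted p = 0.685).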

How the data were processed

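The authors deposited 1 scanner file per array for 7 1-colour Agilent mouse arrays, each labelled from 0.1 μg of RNA. The intensity used is the processed signal that the authors deposited, from which the scanner software had subtracted the background and a spatial trend, with no normalisation between arrays. The authors also deposited processed log2 values in a table, whose array medians are 6.63 to 6.66. Its rows were joined by order (rank correlation with the median intensity of at least 0.9936), its normalisation is not given in the sources used here, and it served as an alternative. Per the labels, the submitters' notes name Agilent Feature Extraction 9.1 and limma.

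The log2 processed signal of 43020 non-control spots was set against the 75th percentile of each array. Spots marked as uneven or as outliers were left out, spots of a probe were averaged, and no spot was saturated. Probes that passed the software's background test on 75% or more of the arrays in either group were fitted with limma 3.58.1 in R 4.3.3 (packages jsonlite 2.0.0 and data.table, version 1.17.8), with the Benjamini-Hochberg adjustment over all 21583 tested probes. The labels call the arrays biological replicates without naming separate cultures, and p-values measure the spread between these arrays, which may be partly technical. A gene of a list is given by its brightest tested probe. Gene names are those of the array annotation, updated through RefSeq, where 15643 of the tested probes have a current symbol and 2232 a synonym. The file of EXO-BSA replicate 3 was written by later software and has fewer columns, and its probes were named through the probe identifiers of the other arrays. Slides were taken from the scan identifier in the array headers, so a slide scanned more than once would count as more than 1. Motifs were counted and figures drawn in Python 3.11.15 with pandas 2.3.3 and matplotlib 3.10.9. The fit and the motif search were tested on simulated data.

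The receptors and the gene lists were chosen with earlier results of these data known. The genes named were every NR4A probe, the called genes of each list, the 2 largest rises and the 2 largest falls of each list, 5 fixed examples (Slc2a4, Ppargc1a, Fos, Crem and Rxra), the 5 genes most like each receptor, and cell type markers. Lpin1, Hif1a, Pygm, Areg, Dusp1 and the neighbouring transcripts fall outside this rule and were named after their values were seen. A further result under this rule is not reported here. Alternatives covered the background correction, the normalisation, the authors' values, the probe filter, the slide, the replicate number, the test, the choice among probes of a gene and each array left out. Protein sequences were not used here.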

Additional observations from a re-analysis of the deposited data

Results flagged for a closer look

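Among the 37 probes examined for a single array far from the rest of the EXO-BSA group, 1 stood out. Hsd11b1, among the genes most like Nr4a2, read 3.75 on EXO-BSA replicate 2, against 3.78 to 3.79 on the other 3 EXO-BSA arrays. The gap is far smaller than the difference between the groups, which was 0.83 with that array and 0.82 without it. Chance alone marks about 1 in 20 such groups. No NR4A probe had an EXO-BSA array this far from the others, and groups of 3 arrays were not examined in this way.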

How the results depend on the processing

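The sign of each NR4A difference was the same in all 17 other settings. The filter settings and the trended and robust fit cannot move a difference. The replicate block gave the same differences as leaving out EXO-BSA replicate 4. As the family was chosen by these differences, a kept sign is no independent support. Nr4a1 was 0.77 as reported, 1.04 with normexp on the median signal and 1.04 with the authors' values, and 0.69 to 0.85 with each array left out. The Nr4a2 coding probe was 2.50 with normexp, 2.70 with the authors' values and 2.81 to 3.24 with each array left out, and the 3′ probe 2.80 to 3.48. The normexp setting was chosen after seeing the data, in place of the planned one on the mean signal, which 1 array does not hold. The cause of these shifts was not tested.

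The count of called probes was 115 (100 higher, 15 lower), and 0 without a probe filter, 181 with slide as a random effect, 173 with a trended and robust fit, and 0 to 202 with each array left out (0 without EXO-BSA replicate 1, 202 without EXO-Palm replicate 2). The methods' t-test gave 2107 unadjusted and 0 after the Benjamini-Hochberg adjustment. The split was 97 higher and 31 lower with normexp. The replicate numbers follow the order of the arrays and are not known to pair them. Deviations of equally numbered arrays correlated at 0.12, -0.15 and -0.15, which with so few arrays cannot exclude a pairing. The replicate block called 0 probes, with 1933 at an unadjusted p under 0.05, and called 0 genes of the cyclic AMP and CREB list.

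That list went from 1 call to 0 with normexp, quantile normalisation, median scaling, the authors' values, no filter, slide as a fixed block and the mean of a gene's probes, and to 0 to 0 with each array left out. The rapid cyclic AMP targets went from 0 to 1 with a filter on all 7 arrays and with slide as a fixed block, and to 0 to 1 with each array left out. The muscle targets went from 0 to 1, a fall, with normexp, the authors' values, the filter on all 7 arrays, slide as a random effect and the trended and robust fit, and to 0 to 1 with each array left out. Signs turned for single genes far from the threshold. With slide as a fixed block they were Fos (0.16), Nr1d2 (0.13), Rcan1 (-0.17) and Sik1 (0.13), and in the replicate block Prkag3 (0.079). The slide block takes nothing from EXO-BSA replicate 3 or EXO-Palm replicate 2, and the replicate block nothing from EXO-BSA replicate 4. These turns are therefore not separate from those with the same array left out. With each array left out, the range was -0.034 to 0.20 for Adipor2 (negative without EXO-Palm replicate 3), -0.25 to 0.16 for Prkag3 (positive without EXO-BSA replicate 4 or EXO-Palm replicate 3) and -0.18 to 0.082 for Fos (positive without EXO-BSA replicate 1 or EXO-Palm replicate 2). It was -3.12 to 0.082 for Nr1d2, -0.049 to 0.55 for Rcan1 and -3.65 to 0.30 for Sik1, each with its sign turned without EXO-Palm replicate 2. Over 605 comparisons of 36 genes with another setting, the sign turned in these 13, for 6 genes, and was kept otherwise, with the same side of the threshold in 517, a lost call in 60 and a gained one in 15. Beyond these shared arrays, the causes were not tested. Signal near background limits Nr4a3 and the neighbouring transcripts.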
